A study of Homo sapiens with 4 samples.

Results

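The nuclear genes that encode the respiratory chain and ATP synthase of mitochondria were compared between LS180 cells, a long-established line from a human colon carcinoma, with and without RBM35A. They were chosen by symbol alone: subunits of complexes I to IV, ATP synthase and the complex I assembly factors that share the NDUFA prefix, read by probe sets that the array annotation ties to exactly 1 symbol. The choice gave 61 genes of the 8225 on the array, read by 69 probe sets, and where several probe sets read a gene, the brightest by its mean of the 4 values was taken. A gene was analysed if it reached a log2 value of 5 on at least 1 array, and values under 5 were raised to 5. By that filter 53 of the 61 genes were analysed, among 3588 genes in all.

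There were 4 arrays, 1 for each of 4 groups: polysomal RNA of RBM35A+ cells, polysomal RNA of RBM35A− cells, total RNA of RBM35A+ cells and total RNA of RBM35A− cells. RBM35A, now called ESRP1, binds RNA in epithelia and acts on splicing, and the study asked how its expression alters total and polysome-bound mRNA. RBM35A+ cells carried a Tet-off construct and had been kept without doxycycline for at least 6 days, which turns RBM35A on, whereas RBM35A− cells were kept with doxycycline and are called parental in the labels, which do not say whether they held the construct. Polysomal RNA is RNA bound by several ribosomes, collected here from sucrose gradients loaded with lysates made in cycloheximide, and total RNA was extracted with TRIZOL. Doxycycline changed together with RBM35A, and the extraction changed together with the fraction, so these cannot be told apart. The labels do not say how many clones the Tet-off cells came from. Since RBM35A itself was not analysed here, the labels alone give the state of the cells.

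The respiratory chain is a row of protein complexes in the inner mitochondrial membrane. Complex I takes electrons from NADH and complex II takes them from succinate, complex III passes them to cytochrome c, and complex IV, cytochrome c oxidase, hands them to oxygen. Complexes I, III and IV pump protons, and ATP synthase lets the protons flow back through a membrane ring and makes ATP in its F1 head. Most subunits are encoded in the nucleus, made on cytosolic ribosomes and imported, and a few, not read by the probe sets used, are encoded in mitochondrial DNA. Colon epithelium draws much of its energy from the oxidation of butyrate through this chain.

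Values at or over the floor were found for 4312 of 12626 probe sets (34.2%) on each polysomal array and for 4269 (33.8%) on each total RNA array. The tissue label held for epithelium: 12 of 13 colon epithelial markers were analysed, among them EPCAM, KRT8, CDX2 and LGALS4, and KRT20 read at most 2.44. Of the markers on the array, 1 of 5 haematopoietic markers (HBB) and 1 of 6 fibroblast and endothelial markers (COL1A1) were analysed, while PTPRC, CD3E, COL3A1 and VIM lay far under the floor. Sorted values were equal within each pair of arrays and differed by up to 0.227 between the fractions, so each pair had been normalized apart from the other. With 1 array per group there was no replicate check and no test of a single difference. As a measure of error, probe sets of the same gene disagreed with an SD of 0.187 for the difference RBM35A+ minus RBM35A− in polysomal RNA, 0.211 in total RNA and 0.259 for the difference of these differences, over 489 genes with several measured probe sets. This SD covers probes and not cultures. All differences are on the log2 scale.

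The question of the polysomal comparison was which transcripts on ribosomes differ with RBM35A. Most transcripts of the respiratory chain and ATP synthase read slightly higher in polysomal RNA of RBM35A+ cells than of RBM35A− cells. Of 53 genes, 38 were above 0, against 53.3% of all genes analysed, and 14 were below 0, against 40.4%. Their median difference was 0.09, against 0.01 over all genes, and 0.059 with the linear trend on the difference between fractions removed. On the same pair of arrays the 5′ control probe sets were lower in RBM35A+ cells, by −0.86 for beta-actin and −0.79 for GAPDH, and their 3′ probe sets differed by −0.02 and −0.13. The part of this difference in the values of these genes was not tested. Past a difference of 0.322 on the log2 scale, a ratio of 5 to 4 and the smaller of the limits used, 7 genes were higher (7.05% of all genes were) and 1 was lower (6.08% of all genes were). No gene (0) was 1.5-fold higher, against 0.725% of all genes, and 1 was 1.5-fold lower, against 1.23%. The 7 genes came from every complex: UQCRC2, COX7A2, SDHA, ATP5ME, ATP5MC1, COX4I1 and NDUFA2. They were not spread evenly, with 1 of 21 subunits in complex I (4.76%, under the 7.05% of all genes). The others were 1 of 3 genes in complex II, 1 of 6 in complex III, 2 of 11 in complex IV and 2 of 10 in ATP synthase. By the size of the probe-set SD, 17 genes were higher by more than it (17.5% of all genes were) and 3 were lower by more than it (14.2% of all genes were).

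**Figure D1:**
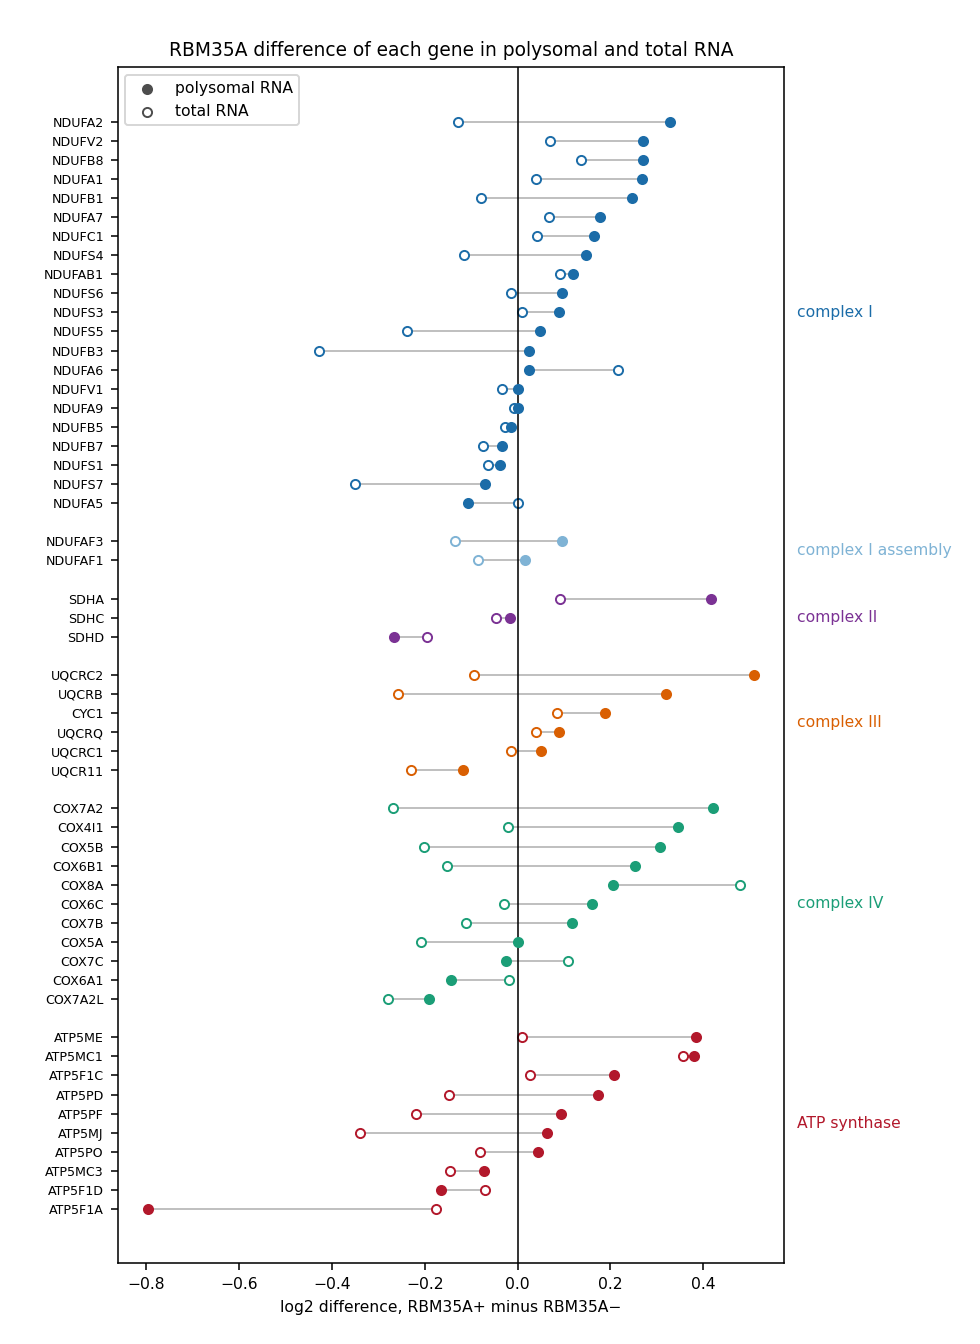
Log2 difference RBM35A+ minus RBM35A− (horizontal axis) of each of the 53 genes analysed, by complex. Filled points are polysomal RNA and open points total RNA, each from 1 array per state, and the line joins the 2 differences of a gene. Most filled points lie right of their open points, and ATP5F1A lies far to the left at −0.80.

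In complex III, UQCRC2, a large matrix-side subunit of the enzyme, had the highest difference of all 53 genes. It read 9.68 in RBM35A+ cells and 9.17 in RBM35A− cells in polysomal RNA, a difference of 0.51 (1.42-fold), and 9.57 in RBM35A+ cells and 9.66 in RBM35A− cells in total RNA, a difference of −0.09. The polysomal value of RBM35A− cells was thus the lowest of its 4 readings. UQCRB, a small subunit that binds near the ubiquinone site, read 10.20 and 9.88 in polysomal RNA of RBM35A+ and RBM35A− cells and 9.31 and 9.57 in total RNA, so that its differences, 0.32 and −0.26, had opposite signs. CYC1, the cytochrome c1 subunit that carries electrons to cytochrome c, read 10.48 and 10.29 in polysomal RNA of RBM35A+ and RBM35A− cells and 10.21 and 10.12 in total RNA. Its other probe set gave 0.16 in polysomal RNA, close to the 0.19 of the probe set used, and −0.02 against 0.09 in total RNA. UQCRC1, the partner of UQCRC2, differed by 0.05 in polysomal RNA, reading 11.48 in RBM35A+ and 11.43 in RBM35A− cells. The small subunit UQCR11 was the 1 gene of complex III below 0, with 12.33 in RBM35A+ and 12.45 in RBM35A− cells. The partners UQCRC2 and UQCRC1, which sit side by side in the enzyme, thus had polysomal differences of 0.51 and 0.05.

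In complex IV, 8 of 11 genes were above 0 in polysomal RNA and the median difference was 0.16. COX7A2, the widely expressed form of subunit 7a, read 13.06 in RBM35A+ cells and 12.64 in RBM35A− cells in polysomal RNA (1.34-fold), while in total RNA it read 12.51 in RBM35A+ and 12.78 in RBM35A− cells. The state with the higher value was therefore not the same in the 2 fractions. COX4I1, the largest nuclear-encoded subunit of the enzyme, read 11.66 and 11.32 in polysomal RNA of RBM35A+ and RBM35A− cells and 11.40 and 11.42 in total RNA. COX5B followed with 0.31 in polysomal RNA (0.21 at its other probe set), and COX6B1 with 0.25. At the low end, COX6A1 read 13.56 and 13.71 in polysomal RNA of RBM35A+ and RBM35A− cells. COX7A2L, also known as SCAF1, which joins complex III to complex IV, read 10.22 in RBM35A+ and 10.41 in RBM35A− cells, a difference of −0.19. It was lower in total RNA as well, at 9.99 in RBM35A+ against 10.27 in RBM35A− cells. COX7A2 and COX7A2L, members of the same small family, thus lay at opposite ends of the complex in polysomal RNA.

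Complex II is encoded entirely in the nucleus, and 3 of its genes were analysed. SDHA, the flavoprotein that oxidizes succinate, read 12.07 in RBM35A+ and 11.66 in RBM35A− cells in polysomal RNA (1.33-fold), and 12.07 in RBM35A+ and 11.97 in RBM35A− cells in total RNA. The membrane anchors SDHC and SDHD did not follow it. SDHC read 8.23 and 8.24 in polysomal RNA of RBM35A+ and RBM35A− cells, and 8.10 and 8.15 in total RNA. SDHD read 8.46 and 8.72 in polysomal RNA of RBM35A+ and RBM35A− cells and 9.07 and 9.27 in total RNA, so that RBM35A+ minus RBM35A− was −0.27 and −0.20. In polysomal RNA SDHC lay within the probe-set SD of 0.187, and SDHA and SDHD lay beyond it on opposite sides of 0.

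In complex I, 15 of 21 subunit genes were above 0 in polysomal RNA, with a median of 0.09. At a probe set marked as reading shared sequence, the accessory subunit NDUFA2 had the highest difference. It read 10.02 in RBM35A+ and 9.69 in RBM35A− cells in polysomal RNA, and 8.91 in RBM35A+ and 9.04 in RBM35A− cells in total RNA. NDUFV2, an iron-sulfur subunit of the NADH-oxidizing arm, followed with 9.21 and 8.94 in polysomal RNA of RBM35A+ and RBM35A− cells and 8.85 and 8.78 in total RNA. Next came the accessory subunits NDUFB8 (0.27), NDUFA1 (0.27) and NDUFB1 (0.25). At the low end was NDUFA5, another accessory subunit, at 5.01 in RBM35A+ and 5.12 in RBM35A− cells, near the floor, with both total RNA values under it. NDUFS7, an iron-sulfur subunit next to the quinone site, read 10.24 and 10.31 in polysomal RNA of RBM35A+ and RBM35A− cells, and was lower in total RNA, at 10.70 against 11.05. NDUFB7 had 2 probe sets that differed in sign, with −0.03 and 0.10 in polysomal RNA and −0.07 and 0.25 in total RNA. These subunits spanned −0.11 to 0.33, the narrowest range among complexes I, III, IV and ATP synthase. The assembly factors NDUFAF3 and NDUFAF1, which help build complex I and are not subunits, differed by 0.10 and 0.02. NDUFAF1 read 5.02 in RBM35A+ cells in polysomal RNA and lay under the floor in RBM35A− cells, so its value is a lower bound in size, and without the floor it was 0.36.

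ATP synthase held the widest range, from −0.80 to 0.38, which rests on ATP5F1A alone at its low end. The next lowest gene, ATP5F1D, was at −0.16. ATP5ME, subunit e of the membrane part, read 14.10 in RBM35A+ and 13.72 in RBM35A− cells in polysomal RNA (1.30-fold), and 12.84 in RBM35A+ and 12.83 in RBM35A− cells in total RNA. Its other probe set gave 0.27 in polysomal RNA but 0.23 in total RNA. ATP5MC1, which encodes the c subunit of the proton-driven ring, read 13.70 and 13.32 in polysomal RNA of RBM35A+ and RBM35A− cells and 12.96 and 12.60 in total RNA. It was the 1 gene of the 53 that was higher by at least 0.322 in both fractions, by 0.38 and 0.36. ATP5MC3, which encodes an identical mature c subunit, differed by −0.07 in polysomal RNA and −0.15 in total RNA. The delta subunit gene ATP5F1D read 12.68 in RBM35A+ and 12.85 in RBM35A− cells in polysomal RNA, and its other probe set gave a difference of 0.00 in polysomal RNA and 0.24, not −0.07, in total RNA.

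ATP5F1A, the alpha subunit of the F1 head, was the 1 gene of the 53 past 1.5-fold in polysomal RNA, and it was lower. It read 6.99 in RBM35A+ and 7.78 in RBM35A− cells in polysomal RNA, a difference of −0.80 (1.74-fold lower), while in total RNA it read 11.06 in RBM35A+ and 11.24 in RBM35A− cells. Its polysomal readings were thus far under its total RNA readings in both states, by −4.08 in RBM35A+ and −3.45 in RBM35A− cells. Control probe sets toward the 5′ end of the beta-actin transcript were likewise lower in RBM35A+ cells: RBM35A+ minus RBM35A− in polysomal RNA was −0.86 for the 5′ probe set, −0.44 for the middle one and −0.02 for the 3′ one. For GAPDH these values were −0.79, −0.33 and −0.13. In total RNA the 5′ control probe sets differed by −0.05 for beta-actin and −0.03 for GAPDH. Where the probe set of ATP5F1A lies on its transcript was not used here, and the part of the lower 5′ signal in its value was not tested. The F1 gamma subunit gene ATP5F1C, by contrast, differed by 0.21 in polysomal RNA, and the F1 beta subunit gene ATP5F1B was not analysed since its probe set read at most 2.86.

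Of the 8 genes not analysed, 5 belong to ATP synthase (ATP5F1B, ATP5MC2, ATP5MF, ATP5MG and ATP5PB), 1 to complex I (NDUFB6) and 2 to complex IV (COX6A2 and COX7A1, the heart and muscle forms of their subunits). Their highest readings lay between 2.22 for COX7A1 and 4.95 for ATP5MG, which missed the floor narrowly. ATP5MF read at most 2.30 at its probe set, while a set that carries both ATP5MF and ARMC2-AS1, left out for its several symbols, read 10.39 to 10.98. Whether the genes not analysed were expressed was not tested. Just inside the floor were NDUFA9, with a highest reading of 5.01, NDUFA5 with 5.12 and NDUFAF1 with 5.15. These 3 genes had floored values on 3, 2 and 1 of their 4 arrays.

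Transcription of these genes is commonly linked to the factors NRF1, GABP (also called NRF2, of the ETS family) and YY1, which bind promoters of many subunit genes, so the promoters of genes at the top and the bottom of the polysomal difference are shown. RefSeq promoters of build GRCh38.p14, 250 bases before to 50 after each start, were found for 45 of the 53 genes, with 59 starts. The motifs searched on both strands were GCGCA, any base and GCGC for NRF1, CCGGAAG for ETS factors and AAGATGGCG for YY1. Their matches stand in capitals. UQCRC2 (chr16:21953111-21953410, plus strand) and ATP5ME (chr4:674227-674526, minus strand) led complex III and ATP synthase, SDHA (chr5:218070-218369, plus strand) led complex II, and ATP5F1A (chr18:46098247-46098546, minus strand, the 1 of its 2 starts with a match) went the other way. The sequences run 5′ to 3′ along the gene.
UQCRC2: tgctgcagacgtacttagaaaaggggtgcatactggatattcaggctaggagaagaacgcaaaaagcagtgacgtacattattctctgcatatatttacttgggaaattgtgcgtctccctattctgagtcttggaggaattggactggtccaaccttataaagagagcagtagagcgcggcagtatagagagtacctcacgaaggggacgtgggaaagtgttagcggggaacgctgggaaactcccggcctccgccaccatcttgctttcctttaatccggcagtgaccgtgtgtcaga
SDHA: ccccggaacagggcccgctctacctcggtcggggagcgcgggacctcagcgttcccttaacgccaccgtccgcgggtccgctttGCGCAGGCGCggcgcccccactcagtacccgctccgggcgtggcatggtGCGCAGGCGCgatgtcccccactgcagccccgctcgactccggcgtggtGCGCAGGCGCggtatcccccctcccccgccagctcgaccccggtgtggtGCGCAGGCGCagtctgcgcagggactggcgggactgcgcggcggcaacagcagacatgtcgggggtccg
ATP5ME: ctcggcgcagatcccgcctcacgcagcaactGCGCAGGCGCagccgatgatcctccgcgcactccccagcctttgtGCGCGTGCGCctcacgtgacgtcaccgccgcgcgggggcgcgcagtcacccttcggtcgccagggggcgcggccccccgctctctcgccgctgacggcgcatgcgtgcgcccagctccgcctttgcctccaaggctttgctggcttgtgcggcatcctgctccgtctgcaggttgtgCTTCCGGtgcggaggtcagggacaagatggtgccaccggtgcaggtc
ATP5F1A: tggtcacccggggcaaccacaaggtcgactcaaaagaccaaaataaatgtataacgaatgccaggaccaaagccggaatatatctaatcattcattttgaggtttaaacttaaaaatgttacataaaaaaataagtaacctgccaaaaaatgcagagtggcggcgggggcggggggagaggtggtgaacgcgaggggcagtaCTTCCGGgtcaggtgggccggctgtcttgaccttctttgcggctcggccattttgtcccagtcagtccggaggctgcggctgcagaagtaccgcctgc
The SDHA promoter held 4 NRF1 matches, which began 166, 117, 68 and 19 bases before the start, ATP5ME held 2 NRF1 matches and 1 ETS match, ATP5F1A held 1 ETS match, and UQCRC2 held no match (0) to the letters searched. COX7A2 and NDUFA2, which led complexes IV and I, are not shown, and their promoters held no match (0) either.

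NRF1 matches were found in 15.3% of the 59 promoters of these genes, against 5.78% of all 35114 promoters of the table and 10.4% of the 4626 promoters of genes analysed. ETS matches were found in 28.8%, against 10.3% and 16.1%, and YY1 matches in 15.3%, against 1.75% and 4.02%. In polysomal RNA the median RBM35A difference was 0.09 for the 27 genes with any match, of which 19 were above 0, and 0.11 for the 18 without, of which 15 were above 0. By motif it was 0.05 for 9 genes with an NRF1 match and 0.11 for 36 without, and 0.09 for 16 genes with an ETS match (10 above 0) and 0.10 for 29 without (24 above 0). For YY1 it was 0.07 for 8 genes with a match and 0.10 for 37 without. Whether these medians differ was not tested. A match describes letters in this window and is not a bound site.

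In total RNA the same genes leaned the other way. Of 53 genes, 36 were below 0 in RBM35A+ relative to RBM35A− cells, against 45.6% of all genes, and 16 were above 0, against 46.5%. Their median was −0.06, against 0.00 over all genes. Past 0.322, 3 genes were lower (6.19% of all genes were) and 2 were higher (6.66% of all genes were), and at 1.5-fold 0 were lower and 0 higher, against 0.613% and 1.42% of all genes. The share of genes past 0.322 was thus near that of all genes, and the lean lay in small differences. By more than the probe-set SD, 9 genes were lower (13.8% of all genes were) and 3 were higher (13.7% of all genes were). The lean was absent in the brightest genes. Of the 7 with a mean level of 13 or more, 2 were below 0, against 47.8% of 90 genes of that level, and their median was 0.04. Between 11 and 13, 7 of 10 were below 0, against 47.7% of 243 genes. Between 9 and 11, 17 of 23 were, against 51.3% of 659 genes, and between 7 and 9, 8 of 9 were, against 49.4% of 1119 genes.

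The 3 genes lower by 0.322 or more in total RNA were NDUFB3, an accessory subunit of complex I (7.43 in RBM35A+ and 7.86 in RBM35A− cells, −0.43), NDUFS7 (−0.35) and ATP5MJ, a small membrane subunit of ATP synthase (7.86 in RBM35A+ and 8.20 in RBM35A− cells, −0.34). In polysomal RNA the difference of NDUFB3 was 0.02 and that of ATP5MJ 0.06. COX8A, a small membrane subunit of complex IV, was highest in total RNA. It read 13.80 in RBM35A+ and 13.32 in RBM35A− cells, a difference of 0.48 (1.39-fold), and 14.37 in RBM35A+ and 14.16 in RBM35A− cells in polysomal RNA, a difference of 0.21. By complex, the median in total RNA was −0.01 for complex I, −0.05 for complex II, −0.05 for complex III, −0.11 for complex IV and −0.11 for ATP synthase.

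**Figure D2:**
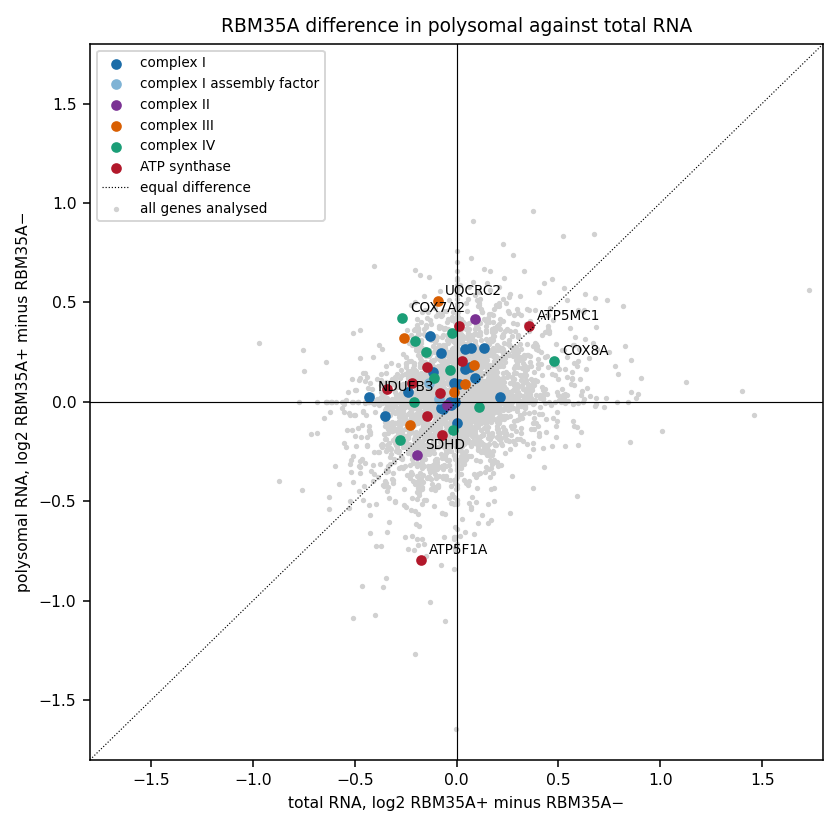
Log2 difference RBM35A+ minus RBM35A− in polysomal RNA (vertical axis) against total RNA (horizontal axis) for all 3588 genes analysed (grey) and the 53 respiratory chain and ATP synthase genes (coloured by complex). Most coloured points lie above the dotted line of equal difference and 23 lie in the upper left quadrant, with ATP5F1A apart at the bottom.

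The difference of differences asks whether RBM35A went with a change on polysomes beyond that in total RNA. For 45 of 53 genes the polysomal difference exceeded the total RNA difference, against 52.6% of all genes, and for 8 it did not, against 47.4%. The median was 0.12, against 0.01 over all genes. Past 0.322, 12 genes were above (10.3% of all genes were) and 1 was below (9.42% of all genes were), and at 1.5-fold 2 were above (1.31% of all genes were) and 1 was below (2.12% of all genes were). In 23 genes the difference was below 0 in total RNA and above 0 in polysomal RNA, against 19% of all genes, and in 1 gene, COX7C, the signs were the other way round. No test of this quantity was possible with 1 array per group. At the 5′ control probe sets the same quantity was −0.82 for beta-actin and −0.76 for GAPDH, and at their 3′ probe sets 0.04 and 0.03, and the part of this in the values of these genes was not tested.

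COX7A2 stood highest at 0.69, from 0.42 in polysomal and −0.27 in total RNA, followed by UQCRC2 at 0.60 and UQCRB at 0.58. Next were COX5B (0.51, other probe set 0.26), NDUFA2 (0.46), NDUFB3 (0.45), COX6B1 (0.40) and ATP5MJ (0.40). At the probe sets used, all of these exceeded the SD of 0.259. In all, 17 genes were above 0 by more than that SD (15.6% of all genes were) and 2 were below 0 by more than it (13.1% of all genes were). The 8 genes below 0 were ATP5F1A (−0.62), COX8A (−0.27), NDUFA6 (−0.19), COX7C, COX6A1, NDUFA5, ATP5F1D and SDHD, and the 2 below by more than the SD were ATP5F1A and COX8A. All 6 complex III genes were above 0, as were 19 of 21 complex I subunits, 8 of 11 complex IV genes, 8 of 10 ATP synthase genes and 2 of 3 complex II genes. The medians were 0.11 for complex III, 0.11 for complex I, 0.21 for complex IV, 0.15 for ATP synthase and 0.03 for complex II.

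Other mitochondrial gene lists are given by their medians and by their highest and lowest genes in polysomal RNA. Assembly factors and other genes of complex biogenesis (11 of 12 analysed) had medians of 0.06 in polysomal and −0.02 in total RNA, with 8 of 11 above 0 in polysomal RNA and 2 of 11 higher by 0.322 or more. The copper chaperone SCO2, needed for complex IV, was highest at 0.50 in polysomal RNA, and SURF1, another complex IV factor, lowest at −0.09. Electron carriers and feeders of the chain (7 of 8 analysed) had medians of 0.07 in polysomal and −0.05 in total RNA, and ranged in polysomal RNA from AIFM1 at 0.45 to CYCS, cytochrome c itself, at −0.37. Enzymes of the TCA cycle and pyruvate dehydrogenase (13 of 15 analysed) had medians of 0.01 in polysomal and 0.02 in total RNA. They ranged in polysomal RNA from 0.19 for IDH2 to −0.15 for PDHX. Of this list, MDH2, DLAT and SUCLG2 were at the floor in polysomal RNA of both states, so their polysomal difference was 0.

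Mitochondrial carriers and channels (9 of 11 analysed) had a median of 0.06 in polysomal RNA, with the outer membrane channel VDAC3 at 0.26 and its relative VDAC1 at −0.30. Protein import and chaperone genes (12 of 14 analysed) had a median of 0.00, from TOMM70 at 0.30 to TIMM17B at −0.22. Mitochondrial ribosomal proteins (14 of 16 analysed) had medians of 0.02 in polysomal and −0.09 in total RNA, and MRPL28 stood apart at −0.69 in polysomal RNA. Of the regulators of mitochondrial genes, 5 of 12 were analysed, with medians of 0.21 in polysomal and 0.00 in total RNA. Both medians were the values of PPRC1, which was at the floor in total RNA of both states. In polysomal RNA the regulators ranged from the mitochondrial RNA polymerase POLRMT at 0.47 to the nuclear receptor ESRRA at −0.36.

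Past 0.322 in polysomal RNA, where 7.05% of all genes were higher and 6.08% lower, there were 2 higher of 11 assembly genes, 1 higher and 1 lower of 7 electron carriers, and 1 higher and 1 lower of 5 regulators. Of 14 mitochondrial ribosomal proteins 1 was lower, and 0 of 13 TCA cycle, 0 of 9 carrier and 0 of 12 import genes lay past it. The difference of differences had medians of 0.21 for the electron carriers, 0.21 for the regulators, 0.12 for the TCA cycle, 0.10 for mitochondrial ribosomal proteins, 0.09 for assembly genes, 0.08 for import and 0.04 for carriers and channels. For the regulators this was again the value of PPRC1, with its total RNA values at the floor. The proteasome and cytosolic ribosome, also large complexes with many subunits, were set beside these genes. In polysomal RNA the median was 0.09 for the respiratory chain and ATP synthase, against 0.05 for 31 proteasome genes and −0.02 for 47 cytosolic ribosomal protein genes. In total RNA it was −0.06 for the respiratory chain and ATP synthase, against −0.02 for the proteasome and −0.08 for the ribosome. The difference of differences had a median of 0.12 for the respiratory chain and ATP synthase, against 0.16 for the proteasome and 0.06 for the ribosome, so the proteasome leaned upward as well. Whether the lists differ was not tested.

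**Figure D3:**
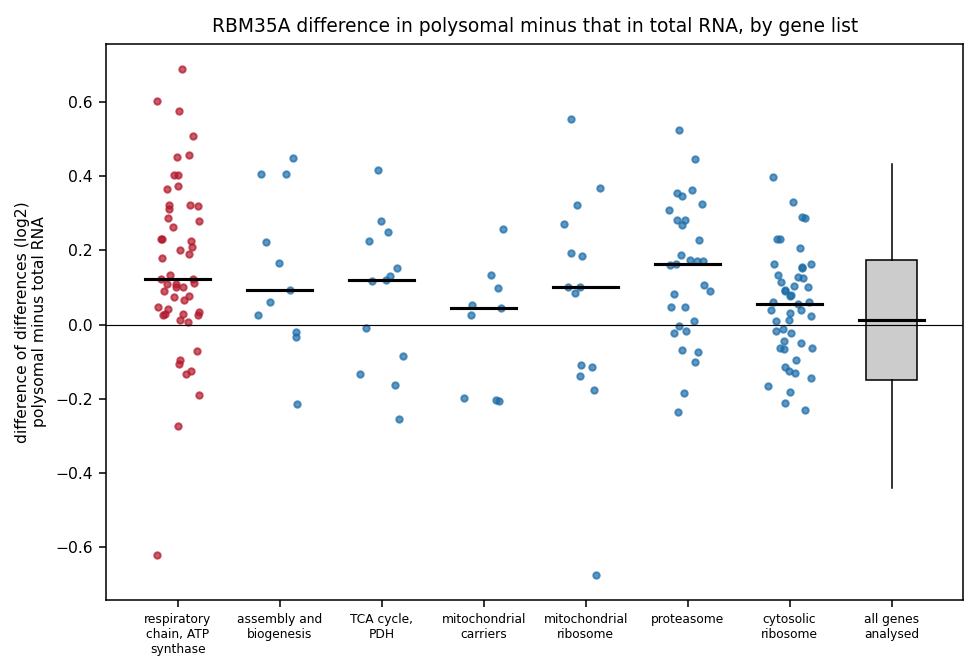
Difference of differences (log2; RBM35A+ minus RBM35A− in polysomal RNA, less the same in total RNA) for each gene of 7 lists, with the list median as a black bar. The box for all 3588 genes spans the quartiles with whiskers at the 5th and 95th percentiles. The medians are 0.12 for the respiratory chain and ATP synthase, 0.16 for the proteasome and 0.01 for all genes.

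Polysomal minus total RNA was then compared within each RBM35A state. These values set levels across separately normalized arrays and different extractions, and probe sets of the same gene disagreed by an SD of 0.84 in RBM35A+ and 0.807 in RBM35A− cells, so only large differences can be read. In RBM35A+ cells 39 of 53 genes were higher in polysomal RNA, against 55.2% of all genes, with a median of 0.27 against 0.09 over all genes. In RBM35A− cells 34 were higher, against 55% of all genes, with a median of 0.16 against 0.09. In RBM35A+ cells 13 were lower, against 43.3% of all genes, and in RBM35A− cells 19 were, against 43.7%. Past 0.322, 24 were higher and 7 lower in RBM35A+ cells, against 37.9% and 26% of all genes, and 21 were higher and 10 lower in RBM35A− cells, against 37.1% and 26.7%. At the top, NDUFC1, a small membrane subunit of complex I, was at 1.35 in RBM35A+ and 1.23 in RBM35A− cells, and ATP5ME at 1.26 and 0.89. At the bottom were ATP5F1A, then UQCRC1 at −0.83 in RBM35A+ and −0.90 in RBM35A− cells, and ATP5F1C at −0.80 and −0.98. At 1.5-fold, 20 genes were higher in RBM35A+ cells, against 26.3% of all genes, and 16 in RBM35A− cells, against 25.9%, while 4 genes were lower in polysomal RNA in each state, against 17.4% of all genes in RBM35A+ and 17.5% in RBM35A− cells. The 5′ control probe sets were lower in polysomal RNA too, at −5.32 in RBM35A+ and −4.51 in RBM35A− cells for beta-actin and −2.59 and −1.83 for GAPDH, while their 3′ probe sets lay between −0.30 and −0.14. For the transferrin receptor, the 3′ control probe set was as low as the 5′ one, at −4.32 in RBM35A+ and −3.92 in RBM35A− cells against −4.14 and −3.69, with all its polysomal readings under the floor. The 3′ control probe set of ISGF3A was at −1.61 in RBM35A+ and −1.26 in RBM35A− cells, also with polysomal readings under the floor. Their part in the order of the genes was not tested.

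**Figure D4:**
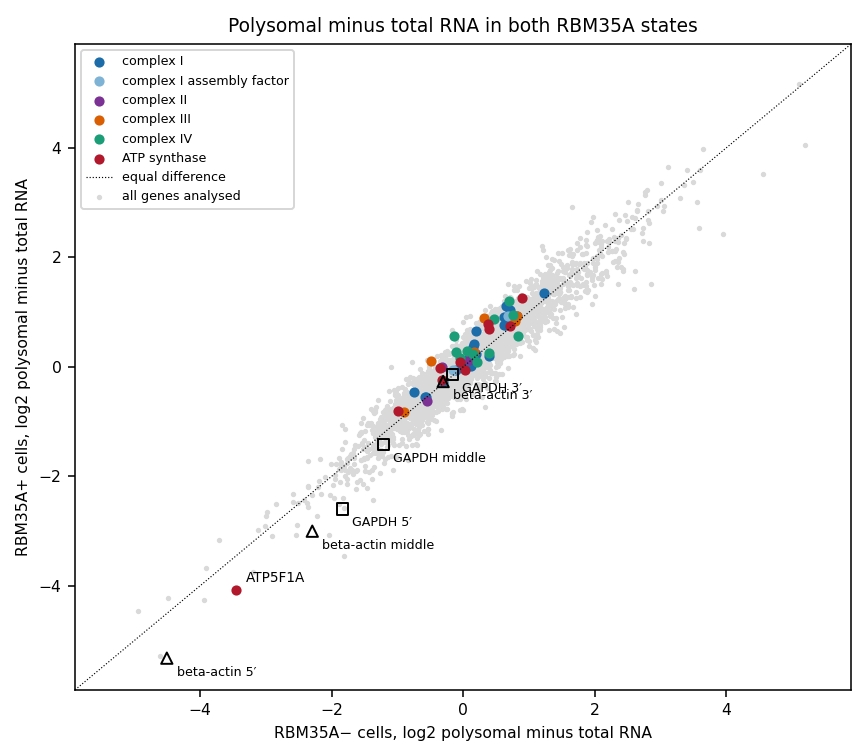
Log2 polysomal minus total RNA in RBM35A+ cells (vertical axis) against RBM35A− cells (horizontal axis), for all genes analysed (grey), the 53 respiratory chain and ATP synthase genes (coloured) and control probe sets of beta-actin (triangles) and GAPDH (squares) for 5′, middle and 3′ stretches of the transcript. ATP5F1A lies between the middle and the 5′ probe set of beta-actin, and the other 52 genes lie within −1 to 1.4 on both axes.

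An additive model of RBM35A state and RNA fraction was fitted with limma over all 3588 genes. It tests the mean of a gene's RBM35A differences in the 2 fractions against 0, and its 1 residual degree of freedom holds their disagreement, so its p-values do not say whether a difference would recur in other cultures. None (0) of the 53 genes and 0 of all genes passed an adjusted p of 0.05 (Benjamini-Hochberg), against 3 and 369 at an unadjusted p under 0.05, which is 5.66% of the 53 genes and 10.3% of all genes. With no floor, 15 of 3588 genes passed with limma, and 0 of the 53 did. The 3 genes were ATP5MC1 (0.37, SE 0.10, higher in RBM35A+ cells in 2 of 2 fractions, limma adjusted p = 0.394), COX8A (0.34, SE 0.114, higher in 2 of 2, limma adjusted p = 0.442) and ATP5F1A (−0.49, SE 0.159, lower in 2 of 2, limma adjusted p = 0.442). Across the 53 genes, which share the arrays and are not replicates, the polysomal and total RNA differences correlated with r = 0.26 (rho = 0.26), and across all 3588 genes with r = 0.27 (rho = 0.26).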

How the data were processed

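The values analysed were log2 values per probe set of Affymetrix HG-U95Av2 arrays, deposited by the authors and made with GCRMA according to the processing notes of the submitters, with a version that is not given in the sources used here. Per the labels' protocols, 10 µg of RNA was labelled per array. GCRMA corrects background by probe base composition, and the sorted values are equal within each pair of arrays, as quantile normalization leaves them, which removes any shift common to most genes of an array. Of 12626 probe sets, 67 were controls, 10943 had 1 symbol, 546 several and 1070 none. Symbols were updated by gene ID through a RefSeq table of GRCh38.p14 (10934 probe sets matched). Differences were computed with Python 3.11.15 and limma 3.58.1 in R 4.3.3, checked on simulated data. Genes were counted past log2 differences of 0.322 and of 0.58, which is 1.5-fold. With 1 array per group, the number of arrays limits the precision.

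The genes, the lists and the rule for named genes were chosen with earlier results of these data known. The rule named, per complex, the 2 highest and 2 lowest polysomal differences, genes past 1.5-fold, the complex II genes and CYC1, and genes whose probe sets differed in sign. Further genes were named after their values were seen. Other lists are given by their highest and lowest genes, and some of their genes at the floor are named besides. Probe sets may also read near-identical pseudogene transcripts, of which these genes have many. Alternatives changed the floor, the filter, the probe set of a gene, trends with level and with fraction, the genes kept and the fold.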

Additional observations from a re-analysis of the deposited data

Results flagged for a closer look

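The median of the 53 respiratory chain and ATP synthase genes was 0.094 in polysomal RNA and −0.064 in total RNA (RBM35A+ minus RBM35A−, log2), that is, it had opposite signs in the 2 fractions. Other lists had this too. In polysomal and total RNA the medians were 0.05 and −0.02 for the proteasome and 0.02 and −0.09 for mitochondrial ribosomal proteins. They were 0.06 and −0.02 for assembly genes and 0.07 and −0.05 for electron carriers. The TCA cycle list (0.01 and 0.02) and the cytosolic ribosome (−0.02 and −0.08) had medians of the same sign in both fractions. COX7A2 was at 0.42 in polysomal and −0.27 in total RNA, and UQCRC2 at 0.51 and −0.093, again with opposite signs and a difference of differences past 1.5-fold. The total RNA value of UQCRC2 lay within the probe-set SD of 0.211, so its sign there is not established. These differences between fractions were not tested, since each group had 1 array. At the 5′ control probe sets, RBM35A+ minus RBM35A− in polysomal RNA was −0.86 for beta-actin and −0.79 for GAPDH, and at their 3′ probe sets −0.02 and −0.13. The part of this in the values above was not tested.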

How the results depend on the processing

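Medians kept their sign under every alternative run in polysomal RNA, total RNA and the difference of differences, and no value past 0.322 changed sign among the 23 genes named by rule, the genes for which this was run. In polysomal RNA the median was 0.059 with the linear trend on the fraction difference removed and 0.14 among genes of mean level 9 or more. At that level 31 of 40 were above 0, against 49.3% of all 992 such genes, whose median was 0.00. The median in total RNA was −0.034 with the mean of a gene's probe sets and −0.034 with its second highest probe set. With a limit of 1.5-fold in place of 0.322 the counts of higher genes were 0 in polysomal RNA, 0 in total RNA and 2 for the difference of differences, and that of lower genes in total RNA was 0. Among genes of mean level 9 or more, 1 gene was lower by 0.322 or more in total RNA. Without probe sets whose names end in _s_at, _f_at, _r_at, _g_at or _i_at, 49 genes were left, NDUFA2 and ATP5ME not among them. Of these, 5 were higher by 0.322 or more in polysomal RNA and 10 for the difference of differences. Under the main settings 7.05% and 10.3% of all genes were, and the shares among the 3210 genes of this setting were not counted. A further setting, chosen after seeing the data, left out genes at least 1.5-fold lower in polysomal than in total RNA. It removed 4 of the 53 genes, ATP5F1A among them. ATP5F1A was the 1 gene lower by 0.322 or more in polysomal RNA and for the difference of differences. Both counts were thus 0 by its removal. In this setting 36 of 49 genes were above 0 in polysomal RNA, against 56.5% of 2978 genes. The cause of the other moves was not tested. The number of genes above 0 for the difference of differences was 44 of 53 with a loess on mean level removed, against 48% of all genes. The limma fit was repeated with other floors and filters, other choices of probe set and a variance trend, in which 0 of these genes passed an adjusted p of 0.05 and 3 or 4 had an unadjusted p under 0.05. It was not repeated for the trends removed or the other limits on genes. No paired analysis was possible because each group had 1 array. Limiting the genes by protein length was not run, since no protein table was used.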

Other observations

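Subunits with counterparts in bacterial enzymes, which include those that hold the cofactors, the F1 head and the proton ring, were set apart from accessory subunits, which joined the complexes later. This grouping was made after the values were seen and has no test. The 36 accessory subunits analysed had a median of 0.12 in polysomal RNA (RBM35A+ minus RBM35A−, log2), with 28 above 0, and the 15 core subunits a median of 0.00, with 8 above 0. Of all genes analysed, 53.3% were above 0 in polysomal RNA. In total RNA the medians were −0.05 and −0.05. The difference of differences had a median of 0.20 in accessory subunits, with 31 of 36 above 0, and 0.07 in core subunits, with 12 of 15 above 0. Over all genes, 52.6% were above 0 for this quantity. The part of the lower 5′ control signal in polysomal RNA of RBM35A+ cells in these values was not tested. UQCRC1 and UQCRC2, called core proteins by name, were counted as accessory, as were all complex IV genes. Polysomal minus total RNA also differed between the classes, at a median of 0.61 in RBM35A+ and 0.38 in RBM35A− cells for accessory subunits, and −0.06 and −0.31 for core subunits.

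The polysomal difference was larger in genes of higher level. Of the 7 genes with a mean level of 13 or more, 6 were above 0 in polysomal RNA with a median of 0.27, against 44.4% of 90 genes of that level. Between 11 and 13, 8 of 10 were above 0, against 45.7% of 243 genes, and between 9 and 11, 17 of 23 were, against 51.3% of 659 genes. Between 7 and 9, 5 of 9 were above 0, against 54.5% of 1119 genes. A level on the array is also set by the probes.

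Among probe sets left out because they carry several symbols, 3 read subunits of these complexes. The set shared by UQCRH and its copy UQCRHL was at 0.04 in polysomal and −0.08 in total RNA, the set of NDUFS8 and 2 microRNA genes at 0.15 and −0.25, and the set of ATP5MF and ARMC2-AS1 at 0.01 and −0.23. All 3 were above 0 in polysomal and below 0 in total RNA, a pair of signs found in 19% of all genes analysed. Their polysomal values all lay within the probe-set SD of 0.187, so those signs are not established.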
